A study of Oryza sativa Japonica Group with 3 samples.

Results

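GRAS proteins are a family of plant transcription regulators. They were followed here in the RNA of root tips of rice (Oryza sativa Japonica Group, cultivar Nipponbare), once in RNA from captured nuclei and once in poly(A) RNA. The members were taken from the gene descriptions of the deposited table, as genes described with the letters GRAS, scarecrow or short-root. These letters occur in the descriptions of 63 genes, and in 15 of them only inside another word (integrase in 9, grasp in 5 and grass in 1). Those 15 genes carry no GRAS annotation and were left out. This left 48 members of 35664 genes, 38 with GRAS as their only matching word and the rest named after SCARECROW or SHORT-ROOT.

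Per the labels, nuclear RNA came from line p35S:OsNTF2, whose nuclei carry a tag that was captured on streptavidin beads, and ribosomal RNA was then degraded. Poly(A) RNA came from line p35S:HF-FLAG-OsRPL18, which carries a tagged ribosomal protein, by capture of poly(A) tails from a cleared extract of ground tissue with biotinylated oligo(dT). Both transgenes are driven by the 35S promoter, which is active in most cell types, so neither line marks a single cell type. All root tips were 1 cm long and came from seedlings 7 days old, grown on agar with 1% sucrose. The labels give Murashige and Skoog medium at a strength of 0.5 for the nuclear pool and 1 for the poly(A) pool, whereas the series' design text gives full strength for all. RNA pool, plant line, RNA selection and medium therefore changed together and cannot be told apart. The design text states 4 biological replicates per pool. Every p-value rests on that statement, and if the libraries were not from separate plants it measures technical spread only. Nuclei of the shoot base, which form another sample, were not analysed here.

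The family takes its name from 3 Arabidopsis proteins, GAI, RGA and SCARECROW, and shares a conserved C-terminal domain. In roots, SHORT-ROOT is made in the stele and moves one cell layer outward in Arabidopsis, where it acts with SCARECROW in the division and fate of the endodermis. Other members act in gibberellin and brassinosteroid signalling, in symbiosis and in the outgrowth of tillers.

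Levels are RPKM, reads per kilobase of gene, scaled to the reads of the library, as the authors deposited them. They are shares of a library, so a level in nuclear RNA and a level in poly(A) RNA are each relative to the other genes of that pool. The values are whole multiples of 1 read, from which read numbers were recovered. Reads assigned to genes numbered 1073588 to 2290266 in a nuclear library and 19430866 to 29974177 in a poly(A) library, so the mean depth of the poly(A) pool was 17.5 times that of the nuclear pool. For a gene 1 kb long, a single read stood for 0.436 to 0.93 RPKM in a nuclear library and for 0.0333 to 0.0514 RPKM in a poly(A) library. Pearson's r of log2(RPKM + 1) across the tested genes was 0.854 to 0.891 between nuclear libraries, 0.991 to 0.995 between poly(A) libraries and 0.619 to 0.691 between pools. The root genes LSI1, a silicon channel of exodermis and endodermis (69.3 ± 15.4 RPKM in nuclear RNA, 213 ± 25.8 RPKM in poly(A) RNA), LSI2, NRAMP5 and QHB were detected in both pools. The shoot meristem gene OSH1 was listed at 0 in all 8 libraries. The leaf gene RBCS was listed at 0 in the nuclear libraries and averaged 0.0705 RPKM over the poly(A) libraries, from 7 reads.

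Most GRAS genes that could be tested were higher in nuclear RNA than in poly(A) RNA. A gene was tested where its mean RPKM was at least 1 in either pool, and it was called where limma's adjusted p over all 26928 tested genes was under 0.05. Of the 48 members, 36 were tested, of which 29 were higher in nuclear RNA and 3 were lower, and 4 did not pass the test. Across all tested genes, 33.1% were called higher and 30% lower. The median log2 difference of the 36 tested members, nuclear minus poly(A) on the log2(RPKM + 1) scale, was 1.45, with a range of -1.06 to 3.16, against a median of 0.08 over all tested genes. Among the 29 higher members, 7 had a difference of at least 2 on that scale, 20 lay between 1 and 2, and 2 were under 1. Fewer cells that express a gene and less of its RNA per cell cannot be told apart in such bulk libraries.

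The test did not reach every member evenly. Of the 36 tested members, 28 had a mean of at least 1 RPKM in both pools, and 22 of these were called higher and 3 lower. The other 8 passed the filter through the nuclear mean alone, so they had to be higher there, and 7 of them were called. These 8 are OS11G0139600, OS03G0834300, OS06G0610350, OS01G0755600, OS11G0160550, OS04G0432100, OS11G0141500 and OS06G0476100, the last without a call, and their p-values support nothing beyond that choice. No member passed through the poly(A) mean alone. Ranked without a test, all 4 nuclear libraries stood above all 4 poly(A) libraries for 28 tested members and below them for 2, and the ranges overlapped for 6. Over all tested genes, 31.7% had all nuclear libraries above and 29.4% had all below. On the scales where every library was set to an equal sum of RPKM, 29 members were called higher as well, but 1 lower, or 0 with the 100 highest genes left out of the sum.

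**Figure D1:**
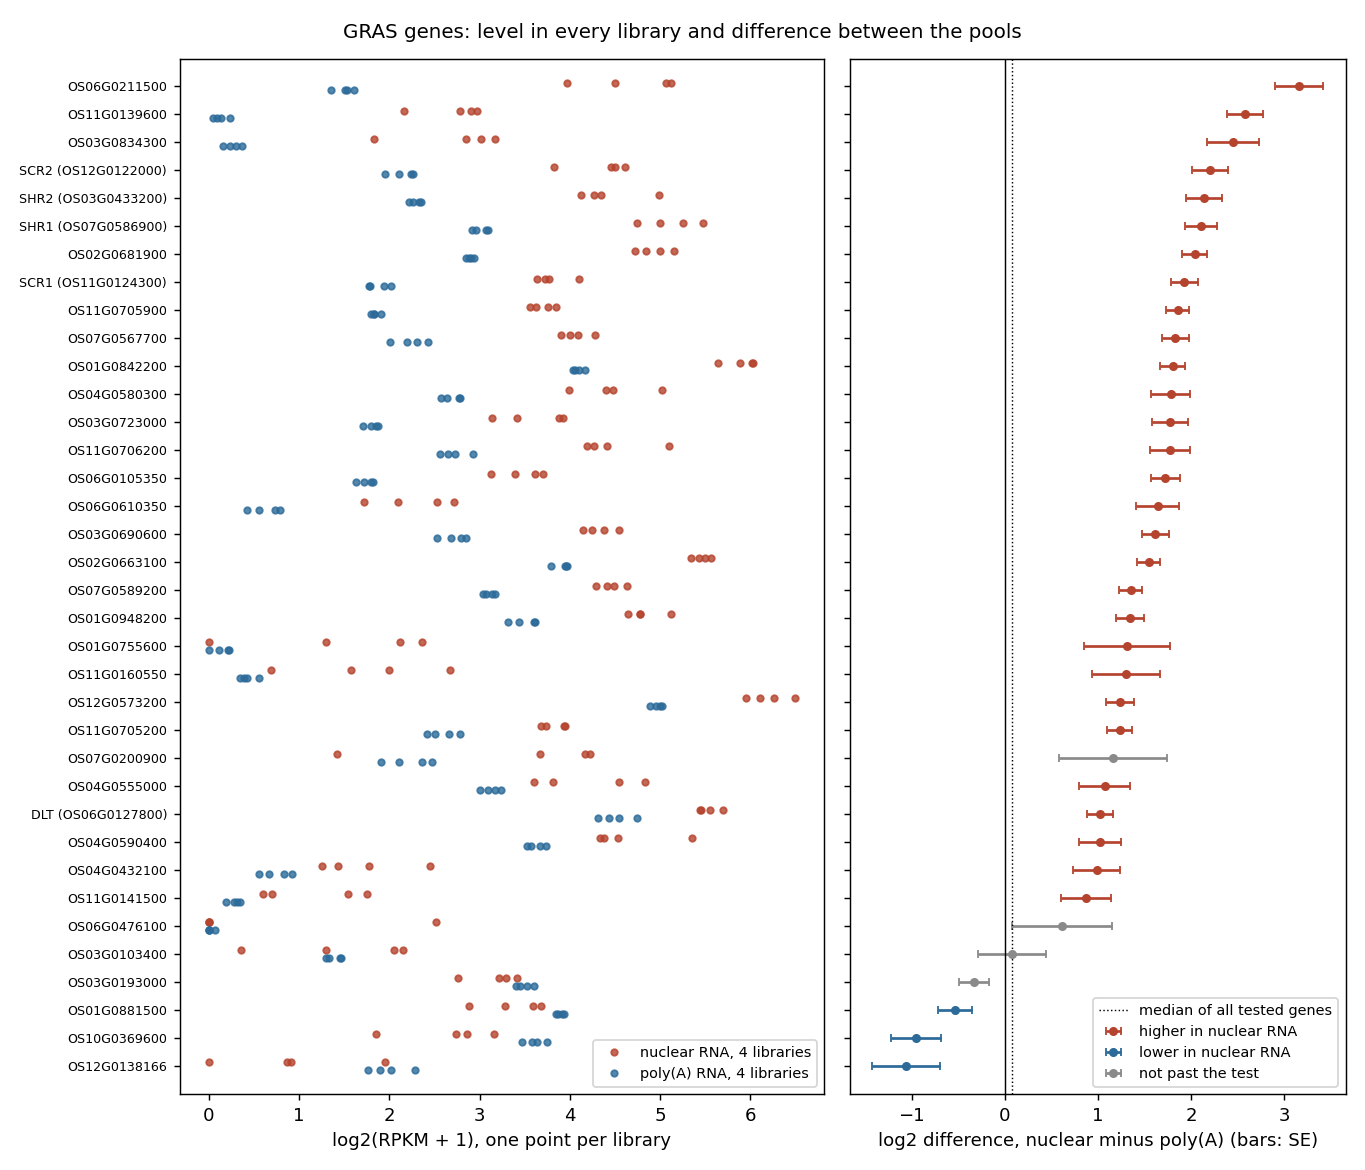
The 36 tested GRAS genes, ordered by their difference, with 1 point per library on the log2(RPKM + 1) scale at the left (nuclear above poly(A) within each row) and the log2 difference, nuclear minus poly(A), with its standard error at the right. In the right panel 29 genes are marked higher in nuclear RNA, 3 lower and 4 not past the test, and the dotted line is the median of all tested genes at 0.08.

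Summed over the family, the 48 members reached 656.3, 626.9, 693.4 and 617.8 RPKM in the nuclear libraries and 226.4, 223.1, 235.4 and 216.2 RPKM in the poly(A) libraries. The 2 sets of sums do not overlap. The family held 0.104% ± 0.00581 of all RPKM in nuclear libraries and 0.03% ± 0.00115 in poly(A) libraries (SD, n = 4 each). Between 32 and 35 members reached 1 RPKM in a nuclear library, and 28 did so in each poly(A) library. The 4 highest members of each library took 32.6 to 37.4% of the family's RPKM in nuclear RNA and 35.6 to 37.8% in poly(A) RNA, and these ranges overlap. Spearman's rho between the mean levels in nuclear RNA and in poly(A) RNA was 0.73 over the 36 tested genes, a description across genes, which are no independent replicates.

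The SHORT-ROOT genes were among the members with the largest differences. SHR1 (OS07G0586900, chromosome 7 by its identifier) had 31.1, 25.8, 43.4 and 37.1 RPKM in the nuclear libraries, against 6.77, 7.51, 7.42 and 6.56 RPKM in the poly(A) libraries. Its lowest nuclear library stood well above its highest poly(A) library. The log2 difference was 2.11 ± 0.17 (SE), with limma's adjusted p of 1.39e-05. SHR2 (OS03G0433200), described in the table as similar to SHORT-ROOT 2, had 16.4, 18.3, 19.3 and 30.8 RPKM in nuclear RNA, against 4.1, 3.8, 4.02 and 3.64 RPKM in poly(A) RNA. Nuclear library 4 was the highest and the other 3 lay close together, and none came near the poly(A) values. Its log2 difference was 2.14 ± 0.20, with limma's adjusted p of 2.5e-05. OS07G0200900 is also described as similar to SHORT-ROOT 2 and did not pass the test. It had 17.8, 11.7, 17 and 1.67 RPKM in nuclear RNA, against 2.74, 3.31, 4.15 and 4.54 RPKM in poly(A) RNA. Nuclear library 4 fell below every poly(A) library, while the other 3 nuclear libraries were above them all. Its log2 difference was 1.16 ± 0.58 (limma's adjusted p = 0.112). With each library left out in turn it ran from 0.87 to 1.81. The highest value was without nuclear library 4 (limma's adjusted p = 0.000149), which held 2 reads of this gene and was singled out after seeing the values.

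The SCARECROW genes stood in the same range. SCR1 (OS11G0124300) had 12.6, 12.2, 11.5 and 16.2 RPKM in nuclear RNA, against 3.05, 2.43, 2.83 and 2.45 RPKM in poly(A) RNA. The log2 difference was 1.93 ± 0.15, with limma's adjusted p of 8.94e-06, and the ranges did not overlap. SCR2 (OS12G0122000), listed in the table as SCARECROW 2, had 21.6, 23.5, 21 and 13.2 RPKM in nuclear RNA, against 3.32, 3.71, 3.81 and 2.87 RPKM in poly(A) RNA. Its lowest nuclear and its lowest poly(A) library both carried the number 4, but the numbers do not pair the libraries. The log2 difference was 2.21 ± 0.19 (limma's adjusted p = 1.96e-05). OS07G0567700, also described as similar to SCARECROW, averaged 15.9 ± 1.93 RPKM in nuclear RNA against 3.74 ± 0.575 RPKM in poly(A) RNA (SD, n = 4 each), a log2 difference of 1.83 (limma's adjusted p = 1.21e-05). SCR1 and SCR2 are close copies on chromosomes 11 and 12, and how the authors' counting shared reads between such copies is not given in the sources used here, so their separate values are uncertain.

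**Figure D2:**
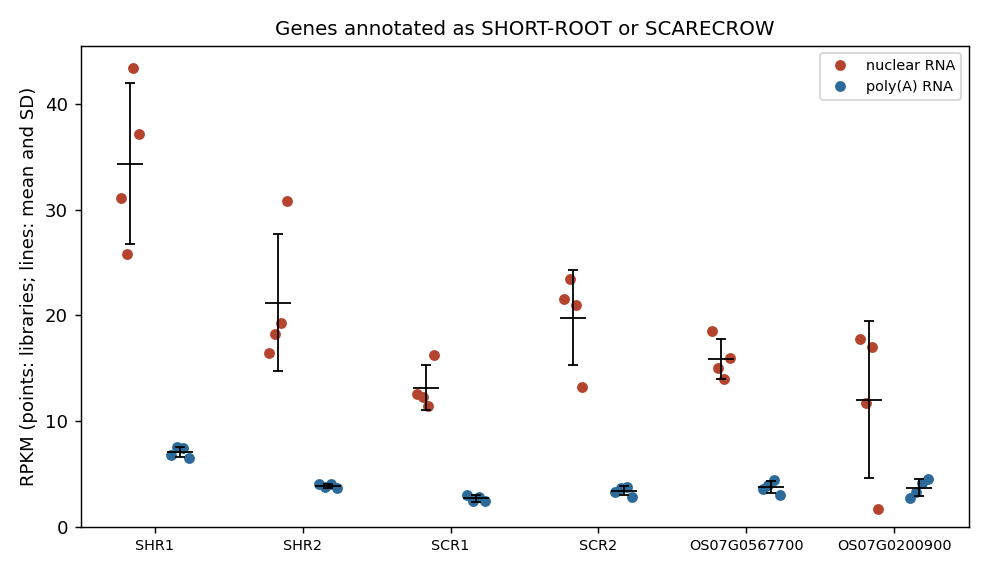
RPKM of the genes annotated as SHORT-ROOT or SCARECROW in each of the 4 nuclear libraries (left of each pair) and each of the 4 poly(A) libraries (right), with horizontal lines at the mean and bars of 1 SD. For 5 of the genes every nuclear library lies above every poly(A) library, and for OS07G0200900 nuclear library 4 lies at 1.67 RPKM.

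The balance between SHORT-ROOT and SCARECROW genes was compared within each library, as the log2 ratio of RPKM + 1 of a pair of genes. The ratio of SHR1 to SCR1 was 1.31 ± 0.36 in nuclear libraries and 1.13 ± 0.15 in poly(A) libraries (SD, n = 4 each), a difference of 0.18 (exact permutation test, two-sided, p = 0.457, adjusted over 3 ratios 0.686). The ratio of SHR1 to SHR2 was 0.69 ± 0.39 in nuclear libraries and 0.72 ± 0.09 in poly(A) libraries, a difference of -0.03 (exact permutation p = 0.914, adjusted 0.914). The ratio of SCR1 to SCR2 was -0.54 ± 0.55 in nuclear libraries and -0.26 ± 0.16 in poly(A) libraries, a difference of -0.28 (exact permutation p = 0.4, adjusted 0.686). No difference passed the test, and each ratio varied more among nuclear than among poly(A) libraries. A design of 4 libraries against 4 allows no p below 0.0286. With each library left out in turn, the difference of SHR1 to SCR1 ran from 0.00348 without nuclear library 3 to 0.27 without nuclear library 2. That of SHR1 to SHR2 ran from -0.18 without nuclear library 3 to 0.11 without nuclear library 4. That of SCR1 to SCR2 ran from -0.55 without nuclear library 4 to -0.16 without nuclear library 2. Without nuclear library 4 the exact permutation p was 0.0571, the smallest that 3 libraries against 4 allow.

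OS06G0211500 had the largest difference of the family on the log2(RPKM + 1) scale and is described only as similar to a GRAS family protein. It had 14.7, 33.8, 21.6 and 32.5 RPKM in nuclear RNA, against 2.04, 1.85, 1.56 and 1.9 RPKM in poly(A) RNA. Its nuclear libraries varied widely, and the lowest was still far above the poly(A) range. The log2 difference was 3.16 ± 0.26 (limma's adjusted p = 1.27e-05). By the ratio of mean RPKM, nuclear over poly(A), it stood at 14, below OS11G0139600 at 61.6, OS03G0834300 at 29.6 and OS01G0755600 at 22.1, which had few reads. OS02G0681900 had 34.7, 25.5, 30.9 and 27.8 RPKM in nuclear RNA, against 6.51, 6.2, 6.37 and 6.66 RPKM in poly(A) RNA. It was among the most even of the members in both pools, with a log2 difference of 2.04 ± 0.13 (limma's adjusted p = 4.45e-06).

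A further pair of members was near the floor in poly(A) RNA, and both had to be higher in nuclear RNA, since they were tested through the nuclear mean alone. OS11G0139600 had 3.49, 5.91, 6.87 and 6.49 RPKM in nuclear RNA, against 0.178, 0.0633, 0.0286 and 0.0999 RPKM in poly(A) RNA, from 84 nuclear and 25 poly(A) reads in all. Per read sequenced it was 59 times as frequent in the nuclear pool (exact binomial 95% interval 37.3 to 96.2, counting error only), while its log2 difference on the RPKM + 1 scale was 2.58 ± 0.19 (limma's adjusted p = 8.39e-06). OS03G0834300, which has no MSU locus in the table, had 7.1, 8.02, 2.54 and 6.22 RPKM in nuclear RNA, against 0.111, 0.172, 0.233 and 0.29 RPKM in poly(A) RNA, from 23 nuclear and 13 poly(A) reads. Nuclear library 3 was the low one. Its log2 difference was 2.45 ± 0.28 (limma's adjusted p = 9.22e-05). For both genes the pseudocount of 1 makes the log2 difference smaller than the ratio of reads.

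The 6 members with the highest mean over all libraries, SHR1 among them, were each called higher in nuclear RNA. That mean leans on the nuclear values, which were mostly the larger, so the ranking favours such members. By the poly(A) mean alone, OS12G0573200, OS06G0127800, OS01G0842200 and OS02G0663100 ranked 1 to 4. OS01G0881500 at 5 and OS10G0369600 at 7, both called lower, came before OS01G0948200 at 9 and SHR1 at 12. OS12G0573200, a gene with a GRAS domain, had the highest level of the family in both pools. It had 89.2, 75.6, 67.9 and 61.1 RPKM in nuclear RNA, against 31.5, 28.7, 30.1 and 30.9 RPKM in poly(A) RNA. All nuclear libraries were above the poly(A) range (log2 difference 1.24 ± 0.15, limma's adjusted p = 0.000108). OS01G0842200, described as similar to Scarecrow-like 9, had 63.9, 49.1, 64.2 and 58.2 RPKM in nuclear RNA, against 17, 15.7, 16.1 and 15.4 RPKM in poly(A) RNA. Its log2 difference of 1.8 ± 0.13 (limma's adjusted p = 7.69e-06) was the larger of these 2.

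DLT (OS06G0127800) acts in brassinosteroid signalling and in plant height and tillering in rice. It had 45.9, 42.8, 50.8 and 42.5 RPKM in nuclear RNA, against 22.4, 20.7, 25.7 and 18.8 RPKM in poly(A) RNA. The ranges were apart, and the log2 difference was 1.03 ± 0.14 (limma's adjusted p = 0.000259). OS02G0663100 had 46.4, 44.4, 39.5 and 42.2 RPKM in nuclear RNA, against 14.7, 14.4, 14.6 and 12.8 RPKM in poly(A) RNA. Poly(A) library 4 was the low one of an otherwise even set (log2 difference 1.54 ± 0.12, limma's adjusted p = 1.01e-05). OS01G0948200 had 33.9, 26.5, 24.1 and 26.6 RPKM in nuclear RNA, against 11.3, 8.93, 11.1 and 9.86 RPKM in poly(A) RNA, a log2 difference of 1.34 ± 0.15 (limma's adjusted p = 7.85e-05). The ranges of both genes were apart.

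**Figure D3:**
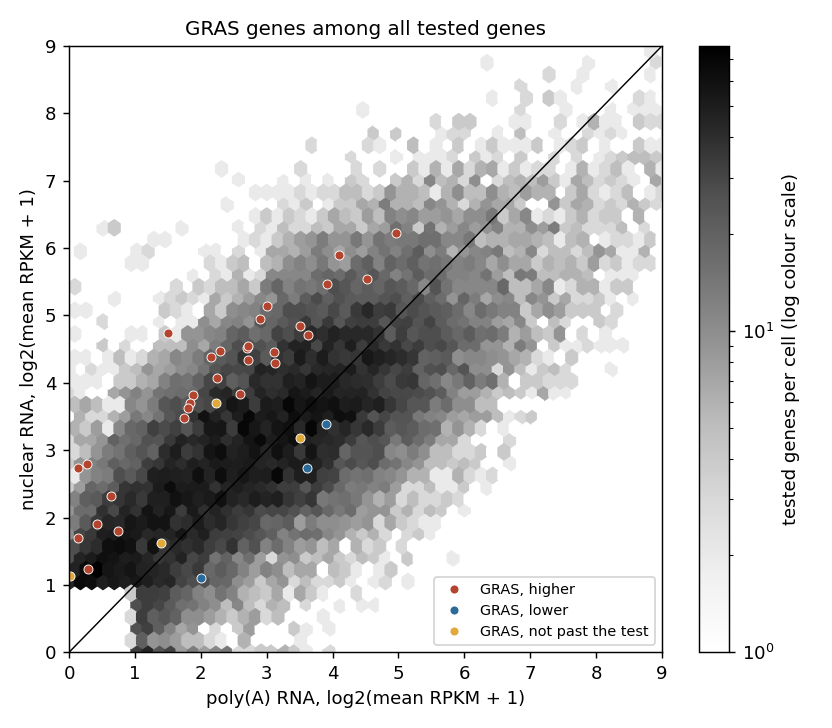
Mean level of each gene in nuclear RNA (vertical axis) against poly(A) RNA (horizontal axis), both as log2(mean RPKM + 1), with all 26928 tested genes as grey cells on a log colour scale and the 36 tested GRAS genes as points. The line marks equal levels, and the 29 genes called higher lie above it from the lowest to the highest levels of the family.

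Among members with a function in their description, the gene at the locus of MONOCULM 1, a regulator needed for tiller buds in rice, was low in both pools. OS06G0610350, described as a GRAS nuclear protein in the control of tillering, had 4.78, 3.27, 2.29 and 5.59 RPKM in nuclear RNA, against 0.725, 0.656, 0.471 and 0.339 RPKM in poly(A) RNA. All nuclear libraries were above all poly(A) libraries (log2 difference 1.64 ± 0.23, limma's adjusted p = 0.000292), on 31 nuclear and 77 poly(A) reads. This gene had to be higher in nuclear RNA, since it was tested through the nuclear mean alone. The table gives the symbol MOC1 to another identifier at the same MSU locus, OS06G0610300, whose description does not match and which had 0 nuclear and 2 poly(A) reads. OS04G0590400, described with a drought stress response, had 25.2 ± 9.8 RPKM in nuclear RNA against 11.4 ± 0.814 RPKM in poly(A) RNA (SD, n = 4 each), a log2 difference of 1.02 (limma's adjusted p = 0.00442). Its nuclear mean leaned on library 3, at 39.8 RPKM. OS06G0105350, similar to Scarecrow-like 6, averaged 10.1 ± 1.91 RPKM in nuclear RNA against 2.34 ± 0.196 RPKM in poly(A) RNA, a log2 difference of 1.72 (limma's adjusted p = 2.38e-05).

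Chromosome 11 held the most members, 11 by the identifiers, and all 7 that were tested were called higher, against 33.1% of all tested genes. OS11G0139600, OS11G0160550 and OS11G0141500 had to be higher, since they were tested through the nuclear mean alone. Of the others, 3 have neighbouring identifiers. OS11G0705200, similar to Scarecrow-like 9, averaged 13.2 ± 1.32 RPKM in nuclear RNA against 5.06 ± 0.693 RPKM in poly(A) RNA (SD, n = 4 each, as for the next 2 genes). OS11G0705900 averaged 12 ± 1.2 RPKM in nuclear RNA against 2.58 ± 0.126 RPKM in poly(A) RNA. OS11G0706200 averaged 22.3 ± 7.46 RPKM in nuclear RNA against 5.6 ± 0.731 RPKM in poly(A) RNA. Their log2 differences were 1.23, 1.86 and 1.78, in that order, and the nuclear and poly(A) ranges were apart for each gene.

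Only 3 members were called lower in nuclear RNA, and each of these calls was lost under at least one other way of processing. OS01G0881500, similar to Scarecrow-like 1, had 11, 11.8, 8.71 and 6.39 RPKM in nuclear RNA, against 13.7, 13.4, 14.1 and 14.3 RPKM in poly(A) RNA. The ranges were apart, by a narrow margin at the top of the nuclear values (log2 difference -0.53 ± 0.19, limma's adjusted p = 0.0325). OS10G0369600 had 7.95, 2.61, 5.69 and 6.26 RPKM in nuclear RNA, against 10.1, 10.9, 12.5 and 11.4 RPKM in poly(A) RNA. Nuclear library 2 was the lowest (log2 difference -0.95 ± 0.27, limma's adjusted p = 0.0126). OS12G0138166 had 0, 0.821, 2.87 and 0.876 RPKM in nuclear RNA, against 3.04, 2.71, 3.88 and 2.39 RPKM in poly(A) RNA, from 7 nuclear reads. The pools overlapped at nuclear library 3 (log2 difference -1.06 ± 0.37, limma's adjusted p = 0.0323). With any one of the 8 libraries left out, 1 or 2 members were called lower, 1 when the one left out was poly(A) library 1, 2, 3 or 4. The call of OS01G0881500 was lost without nuclear library 3 or any one poly(A) library (limma's adjusted p up to 0.0766). That of OS12G0138166 was lost without nuclear library 1, 2 or 4 or any one poly(A) library (up to 0.0833).

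OS12G0138166 shares its MSU locus with another member, OS12G0138100, which had too little signal for the test. OS12G0138100 had 0.958, 0.589, 0.514 and 1.26 RPKM in nuclear RNA, against 0.27, 0.382, 0.141 and 0.376 RPKM in poly(A) RNA, from 7 nuclear and 45 poly(A) reads. The 2 identifiers of this locus thus stood on opposite sides of equal levels, each on 7 nuclear reads. OS11G0160550 and OS11G0160600 also share an MSU locus, but whether their directions differ cannot be told. OS11G0160550 averaged 2.74 ± 2.01 RPKM in nuclear RNA against 0.348 ± 0.0877 RPKM in poly(A) RNA (SD, n = 4 each) and was called higher (log2 difference 1.305, limma's adjusted p = 0.0134). It had to be higher, since it was tested through the nuclear mean alone. OS11G0160600 had 0 nuclear reads and 37 poly(A) reads and was not tested. At the poly(A) rate about 2.11 nuclear reads of OS11G0160600 were expected, so a difference was not detectable at this depth. Reads of overlapping identifiers, and of antisense genes, cannot be told apart where the strand setting of the counting is not known.

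The 4 tested members without a call did not share a direction. Besides OS07G0200900, OS03G0193000 averaged 8.11 ± 1.66 RPKM in nuclear RNA against 10.3 ± 0.69 RPKM in poly(A) RNA (log2 difference -0.33, limma's adjusted p = 0.109), and it was called lower after median centring (-0.49, adjusted p = 0.024) and quantile normalization (-0.47, adjusted p = 0.0304). OS03G0103400 averaged 2.08 ± 1.49 RPKM in nuclear RNA against 1.62 ± 0.149 RPKM in poly(A) RNA (log2 difference 0.08, limma's adjusted p = 0.865). OS06G0476100 rested on 4 reads of nuclear library 4 and 1 read of poly(A) library 4. The remaining called members, OS04G0580300, OS03G0723000, OS03G0690600, OS07G0589200, OS04G0555000, OS04G0432100, OS11G0141500 and OS01G0755600, were all higher. OS04G0580300 was the highest of them in nuclear RNA, at 22 ± 6.89 RPKM against 5.47 ± 0.467 RPKM in poly(A) RNA. OS04G0432100, OS11G0141500 and OS01G0755600 had to be higher, since they were tested through the nuclear mean alone. OS01G0755600, at 2.24 ± 1.86 RPKM in nuclear RNA against 0.101 ± 0.0773 RPKM in poly(A) RNA, rested on 10 nuclear and 7 poly(A) reads, and its ranges overlapped. Its call was lost without nuclear library 1, 2 or 4 or any one poly(A) library (limma's adjusted p up to 0.0882), and that of OS11G0141500 without poly(A) library 4 (0.0527).

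The other 12 members were not tested. OS05G0378500, OS05G0485400, OS11G0141700 and OS11G0500050 were listed at 0 in all 8 libraries. A further 4 had at most 4 reads in all. These were OS05G0378200, OS11G0507300, OS12G0138200 and SLRL2 (OS05G0574900), a relative of the DELLA growth repressors with 1 poly(A) read. None of the 5 members on chromosome 5 was tested. OS05G0500600, the fifth of them, had 2 nuclear and 33 poly(A) reads. OS12G0162700 had 80 poly(A) reads and 0 nuclear reads, and OS11G0160600 had 37 and 0. At the poly(A) rate the nuclear libraries together would have held about 4.56 reads of OS12G0162700 and 2.11 of OS11G0160600. With the nuclear pool set at 3 reads over its 4 libraries, OS12G0162700 was at least 1.52-fold lower in nuclear RNA, and a difference of OS11G0160600 was not detectable at this depth (counting error only).

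The median coefficient of variation of the 36 tested members was 27% in nuclear RNA and 10.9% in poly(A) RNA, and the median member had 158 nuclear and 860 poly(A) reads over its pool. Taken one nuclear library at a time against the poly(A) mean, the median log2 difference of the tested members was 1.56, 1.55, 1.69 and 1.45, so no single nuclear library set it.

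Gene length moved with the difference over all genes. Lengths were those implied by the RPKM and need not equal a gene model. Tested members had a median length of 2158.5 nt, with a range of 598 to 3962 nt, against a median of 1499 nt for all tested genes. Spearman's rho of length with the log2 difference was 0.20 over all 26928 tested genes and 0.03 over the 36 members, both as descriptions across genes. In each of 6 length classes the median of the members was above that of all genes. In the shortest class OS03G0834300, OS01G0755600 and OS06G0476100 were tested through the nuclear mean alone. In the next class OS06G0610350, OS11G0160550 and OS11G0141500 were, and in longer classes OS04G0432100 and OS11G0139600. These members had to be higher, so the medians of the shorter classes and the rho of 0.03 rest in part on that choice. The members' medians were 1.88 (4 members under 1000 nt), 1.16 (7 members below 1500 nt), 1.78 (5 below 2000 nt), 1.82 (10 below 2500 nt), 1.07 (7 below 3000 nt) and 1.62 (3 of 3000 nt and over). The medians of all genes in these classes were -0.31, -0.09, 0.11, 0.12, 0.30 and 0.62. With a smooth local trend (loess) on log2 length taken off, the members' median was 1.35 and that of all genes 0.02.

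**Figure D4:**
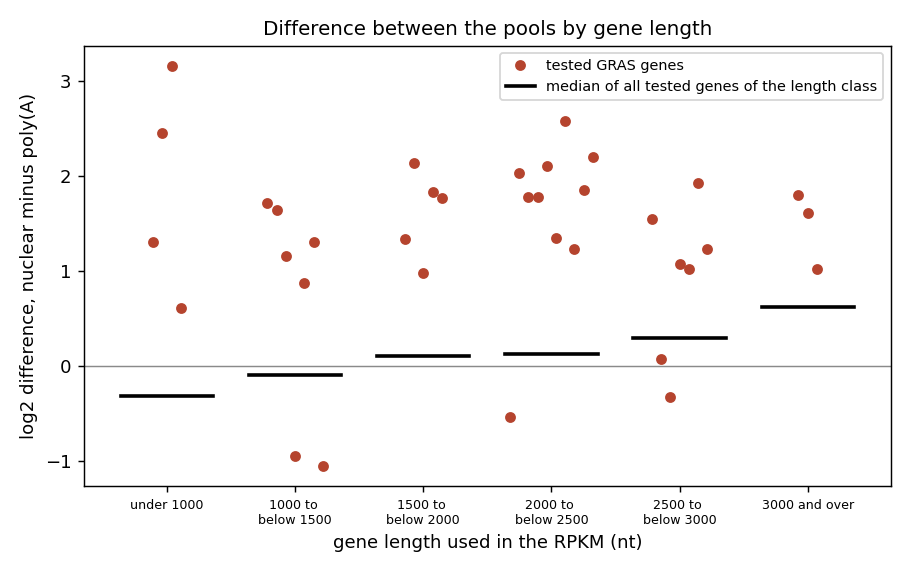
Log2 difference, nuclear minus poly(A), of the 36 tested GRAS genes (points) by the gene length used in the RPKM, in 6 length classes, with the median of all tested genes of each class as a black line. The line climbs from -0.31 in the shortest class to 0.62 in the longest, while the GRAS genes show no such climb and mostly lie above it. Several GRAS genes of the shorter classes were tested through the nuclear mean alone and had to be higher.

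Genes known to work with GRAS proteins did not move as one group. There were 2 genes described with an indeterminate domain, a class of zinc finger proteins that bind SHORT-ROOT, SCARECROW and DELLA proteins in Arabidopsis. Both were higher, against 33.1% of all tested genes. OS03G0237250 had 24.8 ± 6.84 RPKM in nuclear RNA against 5.46 ± 0.25 RPKM in poly(A) RNA (log2 difference 1.96, limma's adjusted p = 4.63e-05). OS04G0566400 had 35.3 ± 5.38 RPKM in nuclear RNA against 18 ± 1.53 RPKM in poly(A) RNA (log2 difference 0.93, limma's adjusted p = 0.00074). GID1, the gibberellin receptor that brings DELLA proteins to their degradation, was also higher, at 93.3 ± 5.41 RPKM in nuclear RNA against 33.6 ± 1.45 RPKM in poly(A) RNA (log2 difference 1.45, limma's adjusted p = 1.14e-05).

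The GRAS proteins NSP1 and NSP2 are needed for symbiosis signalling in legumes and for strigolactone synthesis in rice, but the table lists no gene under these names. Of 6 strigolactone synthesis genes 3 were tested, and D27, the carotene isomerase of the first step, was the one called. This is 33.3% higher, against 33.1% of all tested genes. D27 had 16 ± 2.76 RPKM in nuclear RNA against 2.34 ± 0.451 RPKM in poly(A) RNA (log2 difference 2.34, limma's adjusted p = 6.2e-06). Of 4 symbiosis signalling genes, all tested, 2 were higher and 1 was lower, against 33.1% higher and 30% lower of all tested genes. The nuclear envelope ion channel gene POLLUX averaged 24.8 ± 9.43 RPKM in nuclear RNA against 7.79 ± 0.521 RPKM in poly(A) RNA (log2 difference 1.48). CASTOR, its relative, averaged 12.5 ± 3.8 RPKM in nuclear RNA against 5.83 ± 0.249 RPKM in poly(A) RNA (log2 difference 0.93). IPD3 is the target of the calcium-dependent kinase of this pathway. It averaged 0.184 ± 0.369 RPKM in nuclear RNA, from 3 reads, and 3.11 ± 0.352 RPKM in poly(A) RNA. IPD3 was tested through the poly(A) mean alone, so it had to be lower. Its log2 difference of -1.83 (limma's adjusted p = 8.12e-05) supports nothing beyond that choice. Per read sequenced, IPD3 was 0.0886 times as frequent in the nuclear pool as in the poly(A) pool (exact binomial 95% interval 0.0182 to 0.26). DMI3, that kinase, averaged 4 ± 2.3 RPKM in nuclear RNA against 5.21 ± 0.44 RPKM in poly(A) RNA and did not pass the test.

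A further 3 genes are known as GRAS proteins by their symbols although their descriptions lack the words. SLRL1 (OS01G0646300) was higher, at 22.3 ± 5.71 RPKM in nuclear RNA against 5.17 ± 0.523 RPKM in poly(A) RNA (log2 difference 1.89, limma's adjusted p = 4.53e-05). CIGR2 (OS07G0583600), a chitin-inducible gibberellin-responsive gene, was also higher, at 21.9 ± 3.66 RPKM in nuclear RNA against 11.2 ± 0.436 RPKM in poly(A) RNA (log2 difference 0.90, limma's adjusted p = 0.00073). CIGR1 (OS07G0545800), its relative, was lower, at 7.91 ± 1.71 RPKM in nuclear RNA against 11.9 ± 0.459 RPKM in poly(A) RNA (log2 difference -0.55, limma's adjusted p = 0.0154). With these 3 added, 31 of 39 tested genes were higher and 4 lower, against 33.1% and 30% of all tested genes.

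Genes described with the words casparian, CASP-like or UPF0497 were set beside the family. Some Arabidopsis proteins of this kind build the diffusion barrier of the endodermis downstream of SHORT-ROOT. Which of the rice genes do so was not examined, so the list is no set of endodermis genes. Of the 33 genes so described 29 were tested. Of these 2 were higher (6.9%) and 5 lower (17.2%), against 33.1% and 30% of all tested genes. Their median log2 difference was -0.17, but 0.06 after scaling to an equal sum and 0.13 with the length trend taken off. The largest difference was that of OS06G0231050, at 2.14 ± 1.22 RPKM in nuclear RNA against 19.5 ± 2.84 RPKM in poly(A) RNA (log2 difference -2.78, limma's adjusted p = 3.99e-05). Other transcription factors, taken as 640 genes described as WRKY, MYB, NAC, homeobox, helix-loop-helix, bZIP, MADS or AP2 and ethylene response factors, had 438 tested genes. Of these 122 were higher (27.9%) and 105 lower (24%), against 33.1% and 30% of all tested genes. Their median log2 difference was 0.08, which turned to -0.08 when each library was centred on its median. No test was made of the difference between these lists and the GRAS genes.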

How the data were processed

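Root tip RNA was sequenced in 4 nuclear and 4 poly(A) libraries. The authors deposited RPKM per gene. TopHat2 2.1.1, CASAVA 1.8, FastQC and the IRGSP-1.0 build are named in the submitters' processing notes. Which program counted the reads, whether it used strand and on which annotation is not given in the sources used here. The table's 35694 lines hold 35664 genes, and 29 repeated identifiers with equal values were counted once.

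Read numbers were recovered from the RPKM. All 33191 genes above 0 came out whole, within 0.001 of a read. Intervals cover counting error only.

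The deposited RPKM were taken as log2(RPKM + 1) and fitted with limma 3.58.1 (lmFit and eBayes, R 4.3.3), two-sided, with Benjamini-Hochberg adjustment over all genes with a mean of at least 1 RPKM in either pool. Differences on this scale understate the change of low genes. The fit was tested on simulated reads, drawn with the same spread beyond counting error in every library. Such a spread that differs between the pools was not simulated. Ratios between genes used exact permutation tests (scipy 1.17.1). The column numbers do not pair libraries (r of same-numbered deviations -0.048 to 0.0092).

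Values in all libraries were given for the SHORT-ROOT, SCARECROW and MOC1 genes, the 8 largest positive and up to 8 largest negative differences among called members, and the 6 highest members. The members and lists were chosen with earlier results of these data known. The rule leaves out 1 gene, which is not analysed here. Alternatives covered the pseudocount, filter, scaling, length trend, depth, a fit on recovered reads, a replicate block and each library left out.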

Additional observations from a re-analysis of the deposited data

Results flagged for a closer look

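Each pool of 4 libraries was examined for a library far from the other 3, for the 36 tested members and the family sum (74 groups in all). Chance flags about 1 in 20 such groups, and 4 were marked. OS02G0663100 stood at 12.8 RPKM in poly(A) library 4, while the other 3 poly(A) libraries had 14.4 to 14.7 RPKM. OS04G0590400 stood at 39.8 RPKM in nuclear library 3, while the other 3 nuclear libraries had 19.2 to 22.1 RPKM. OS06G0476100 was marked in both pools, at 4.73 RPKM in nuclear library 4 and 0.0442 RPKM in poly(A) library 4, against 0 in the other 3 libraries of each pool. These are 4 reads and 1 read.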

How the results depend on the processing

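Of the 32 called members, 26 kept their call under each of the 18 other fits in which they were tested, all of them higher in nuclear RNA. The other 6 lost it at least once: OS01G0755600, OS04G0432100 and OS11G0141500, called higher, and OS01G0881500, OS10G0369600 and OS12G0138166, called lower. The count of 29 higher stayed within 1.5 times in every alternative and was 27 to 29 with a library left out. The count of 3 lower was 1 on an equal sum, 0 without the 100 highest genes in the sum, 5 without a filter (44 members tested), 7 with all 63 genes that hold the letters of the pattern, and 1 to 2 with a library left out. The median of 1.45 became 1.69 on an equal sum, 1.72 without the 100 highest genes, 1.75 at a mean of at least 5 RPKM, 1.29 after median centring, 1.27 with no filter on level, 1.89 at a pseudocount of 0.1, 1.60 with poly(A) reads thinned to the nuclear depth and 1.97 with voom on recovered reads. It was 1.33 with GRAS as the only word, 1.31 with the pattern as letters and 1.42 to 1.57 with a library left out. The pattern as letters and the 3 genes added by symbol were chosen after seeing the data. The equal-sum scalings moved the median of all genes from 0.08 to 0.30 and 0.33. Relative to all genes the members' median was higher by 1.37, and by 1.28 to 1.88 in the 19 alternatives. With the replicate block, which the numbers do not support as a pairing, 29 members were higher and 2 lower, with the median at 1.45, and not every library correlated best with the one of its own number. The ratios between genes were not rerun under the scalings, which change them only through the pseudocount. The difference in the log2 ratio of SHR1 to SHR2 was -0.18 to 0.11 with a library left out, and turned positive without nuclear replicate 2 (0.04), nuclear replicate 4 (0.11) or poly(A) replicate 2 (0.00179). The uncalled difference of OS03G0103400 turned to -0.23 with the length trend off, -0.0806 after median centring, -0.0858 with a pseudocount of 0.1 and -0.0791 after quantile normalization, and was -0.15 to 0.45 with a library left out. The causes were not tested. The nuclear depth limits what can be said of genes under about 1 RPKM.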
